A study of Arabidopsis thaliana with 13 samples.

Results

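UGT76C1 and UGT76C2, the cytokinin N-glucosyltransferases of Arabidopsis thaliana, and their relative UGT76B1 were followed across seedlings treated with a synthetic cytokinin. The genes were chosen by name and with earlier results of these data known, a choice that the p-values below do not allow for. They stand for 3 of the 22746 probe sets of the array that are not controls, and each has 1 probe set listed under 1 gene. Their loci are AT5G05870 for UGT76C1, AT5G05860 for UGT76C2 and AT3G11340 for UGT76B1. All 3 passed the filter on low signals that left 15922 probe sets for testing.

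The 13 Affymetrix arrays measured seedlings grown in liquid culture. They comprised 4 arrays of CKX1 seedlings after 15 min of 6-benzyl adenine (BA), 3 of CKX1 seedlings with solvent and 6 of Col-0 seedlings, in pairs given solvent, BA for 15 min or BA for 120 min. CKX1 stands for a transgenic line with 35S::CKX1, in which the constitutive 35S promoter drives a cytokinin oxidase and is not limited to 1 cell type, and Col-0 is the wild type. BA was dissolved in diluted KOH, and its dose is not given in the sources used here. The solvent lasted 2 h, as long as the longer BA treatment, so no control of 15 min stands beside the shorter one. An age of 6 days is stated for the BA-treated Col-0 seedlings alone.

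Cytokinins are adenine-derived hormones whose active forms are the free bases. N-glucosyltransferases attach glucose to a ring nitrogen of the base, which gives conjugates of low activity, while cytokinin oxidases cleave off the side chain, so both enzyme classes lower the pool of active hormone. BA is an aromatic cytokinin that plant N-glucosyltransferases also accept. UGT76B1 belongs to the same glycosyltransferase group but acts on small acids of plant defence, among them isoleucic acid, salicylic acid and N-hydroxypipecolic acid. In the RefSeq gene table for TAIR10.1, UGT76C2 and UGT76C1 are neighbours on chromosome 5 and are followed by AT5G05880, AT5G05890 and AT5G05900, whereas UGT76B1 lies on chromosome 3. Cross-hybridisation between these related genes was not tested, since no probe sequences were used here.

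Array medians ranged from 30.5 to 39.5 units of deposited signal. The control probe set for 25S ribosomal RNA had 92.5 to 803.7 units in 5 arrays, against 2.4 to 46.2 units in the other 8. The 5 are array 3 of each CKX1 group, array 2 of Col-0 at 15 min and the pair of Col-0 at 120 min. They were set apart by their side of 0 on the first principal component, the main axis of variation between the arrays. The same 5 arrays are the highest in 25S signal. Separate levels of many probe sets between them and the other 8 thus follow in part from this choice. The source field of Col-0 120 min array 1 names the control solution, while its title and description give 120 min of BA, by which it was placed. Of the root genes, PYK10 had group means of 2283.6 to 3606.8 units, while those of EXPA7, EXPA18 and AT1G62500 were lower, from 36.2 to 149.5, 65.5 to 197.9 and 43.2 to 127.6 units. The shoot genes RCA, the activase of Rubisco, and LHCB4.1 had group means of 3486.7 to 6545.6 and 4605.7 to 7603.7 units. Whether replicates were separate cultures is not stated, and the p-values below rest on the spread between these samples alone, which may be technical.

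**Figure D1:**
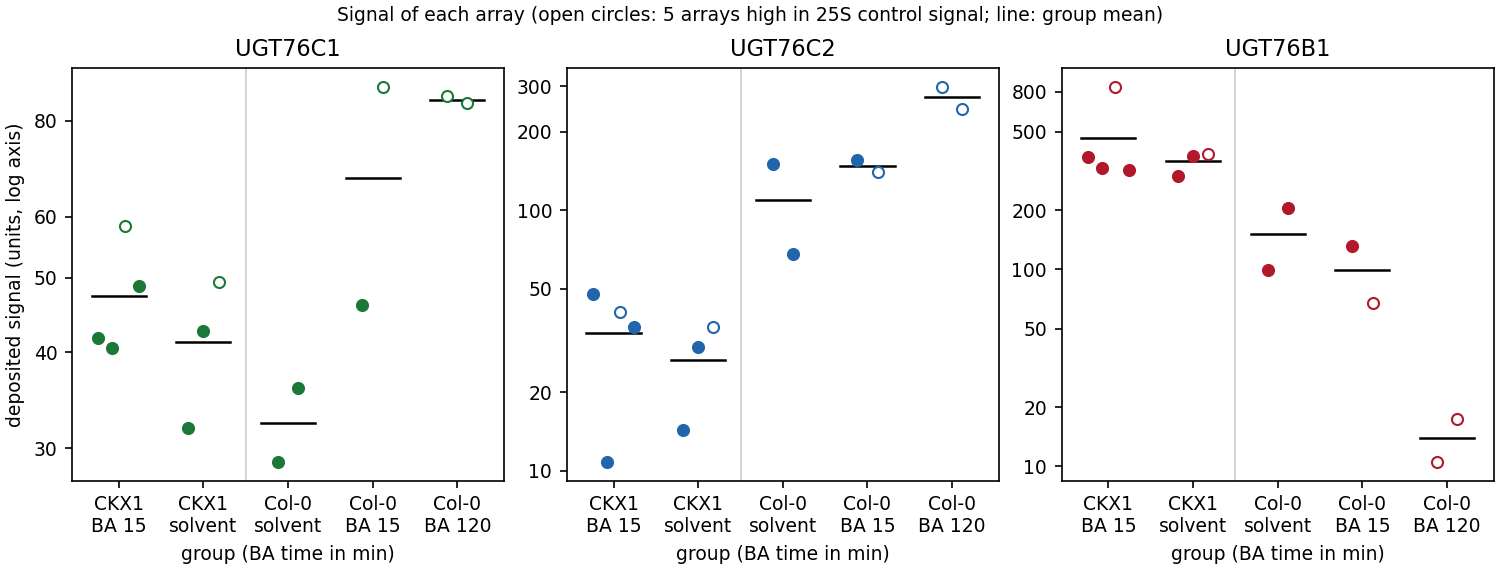
Deposited signal of UGT76C1, UGT76C2 and UGT76B1 (log axis, units) in each of the 13 arrays by group, with a line at the group mean and open circles for the 5 arrays high in 25S control signal. UGT76C2 lies at 10.8 to 47.6 units in CKX1 arrays and 67.9 to 297.4 units in Col-0 arrays, UGT76B1 at 297.7 to 845.5 and 10.5 to 204.6 units, and UGT76C1 overlaps between the genotypes.

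UGT76C2 was lower in CKX1 than in Col-0 seedlings. In CKX1 its signal was 47.6, 10.8, 40.8 and 35.7 units after 15 min of BA and 14.4, 29.9 and 35.5 units with solvent. In Col-0 it was 151.1 and 67.9 units with solvent, 155.9 and 140.3 units after 15 min, and 297.4 and 245.6 units after 120 min. Every CKX1 array lay below every Col-0 array, a separation in this direction found in 1.46% of the probe sets tested.

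Averaged over solvent and 15 min, the treatments that both genotypes share, UGT76C2 had a log2 fold change of -2.03 in CKX1 against Col-0 (SE 0.37, 95% confidence interval -2.84 to -1.22), which is a 0.245-fold level. All fold changes are on the log2(signal + 3.39) scale and understate changes of dim genes. The call passed narrowly over the whole array (limma, adjusted p = 0.0464), in a comparison where 0.251% of probe sets were called lower and 0.163% higher. An exact permutation test of the genotype labels within each treatment gave p = 0.00667 (two-sided), the smallest p that its 150 arrangements allow. This p restates the lack of overlap within both treatments and is no separate evidence. The test treats the arrays as independent, although same-numbered CKX1 arrays deviated together, and with a random replicate block the limma adjusted p was 0.392. The mean was 30.7 ± 13.5 units (SD, n = 7) in CKX1 and 128.8 ± 41.1 units (n = 4) in Col-0 over these 2 treatments.

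The genotypes were also compared within each treatment. With solvent the log2 fold change of UGT76C2 was -1.88 (SE 0.54, limma unadjusted p = 0.0045, adjusted p = 0.897), with 26.6 ± 10.9 units in CKX1 (n = 3) and 109.5 ± 58.8 units in Col-0 (n = 2). After 15 min of BA it was -2.18 (SE 0.51, limma unadjusted p = 0.00114, adjusted p = 0.206), with 33.7 ± 16.0 units in CKX1 (n = 4) and 148.1 ± 11.0 units in Col-0 (n = 2). Neither passed alone over all probe sets, where 0.00628% were called lower with solvent and 0.0126% after BA. The genotypes did not overlap in either treatment, as for 14.9% of probe sets lower in CKX1 with solvent, 9.19% after BA and 3.76% in both. The interaction of genotype and BA was -0.29 (SE 0.74), with a 95% confidence interval of -1.91 to 1.32 that includes differences of either sign.

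UGT76B1 showed the opposite difference, with higher signals in CKX1 than in Col-0. In CKX1 it had 372.1, 327.0, 845.5 and 321.7 units after 15 min of BA and 297.7, 379.3 and 384.2 units with solvent. In Col-0 it had 99.7 and 204.6 units with solvent, 131.3 and 67.5 units after 15 min, and 10.5 and 17.3 units after 120 min. Every CKX1 array lay above every Col-0 array, which held in this direction for 0.923% of probe sets.

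Averaged over solvent and 15 min, UGT76B1 had a log2 fold change of 1.71 in CKX1 against Col-0 (SE 0.32, 95% confidence interval 1.01 to 2.41), a 3.27-fold level (limma, adjusted p = 0.0479). The exact permutation test within treatments, which again takes the arrays as independent, gave p = 0.00667 (two-sided), the smallest of 150 arrangements, against a limma adjusted p of 0.415 with the random replicate block. That exact p again restates the separation of the genotypes within both treatments. The mean was 418.2 ± 191.3 units (n = 7) in CKX1 and 125.8 ± 58.7 units (n = 4) in Col-0. With solvent the log2 fold change was 1.28 (SE 0.47, limma unadjusted p = 0.0181, adjusted p = 0.897), and after 15 min of BA it was 2.14 (SE 0.44, unadjusted p = 0.00043, adjusted p = 0.149). Higher groups without overlap made up 9.41% of probe sets with solvent, 6.48% after BA and 2.17% in both. The interaction was 0.86 (SE 0.64, unadjusted p = 0.205), so the response to BA was not shown to differ between the genotypes. It ranged from 0.36 without Col-0 solvent array 2 to 1.37 without Col-0 solvent array 1.

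Both genotype calls lay close to the threshold. The call of UGT76C2 remained without CKX1 15 min array 2 or 3 and ended without any other single array (limma adjusted p = 0.0336 to 0.304 over the 13), while that of UGT76B1 remained only without CKX1 15 min array 3 (0.0353 to 0.328). With the random replicate block the log2 fold changes were -2.01 for UGT76C2 and 1.68 for UGT76B1. Among the arrays low in 25S signal, UGT76C2 averaged 27.7 ± 15.2 units in 5 CKX1 arrays and 125.0 ± 49.5 units in 3 Col-0 arrays. UGT76B1 averaged 339.6 ± 34.9 units in those CKX1 arrays and 145.2 ± 53.8 units in those Col-0 arrays. The fit without array 3 of both CKX1 groups and array 2 of Col-0 at 15 min gave -2.25 for UGT76C2 (limma adjusted p = 0.0505) and 1.28 for UGT76B1 (adjusted p = 0.0507).

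For UGT76C1, the neighbour of UGT76C2, no difference between the genotypes was called. In CKX1 its signal was 41.8, 40.5, 58.4 and 48.8 units after 15 min of BA and 31.9, 42.7 and 49.3 units with solvent. In Col-0 it was 28.8 and 36.0 units with solvent and 46.1 and 88.5 units after 15 min, which overlaps with CKX1. The averaged log2 fold change was -0.06 (SE 0.21, limma unadjusted p = 0.793, exact permutation p = 0.827), and 0.08 with median-centred arrays or 0.10 after quantile normalization, so it has no stable sign. Its 95% confidence interval of -0.53 to 0.41 leaves room for a change of up to that size.

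The log2 ratio of UGT76C2 to UGT76C1 within each array, which the scaling of arrays affects little, was added after the values were seen. It is given as a description, with no p-value read from it. The ratio ran from -1.63 to 0.17 in CKX1 arrays and from 0.64 to 2.26 in Col-0 arrays. UGT76C2 alone already separates these arrays, so the ratio is no separate evidence, and ratios of other gene pairs were not taken. The mean log2 difference between CKX1 and Col-0 was -1.97 over solvent and 15 min, and 1.77 for the ratio of UGT76B1 to UGT76C1. A ratio shows unequal change of the 2 genes, not which of them changed.

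**Figure D2:**
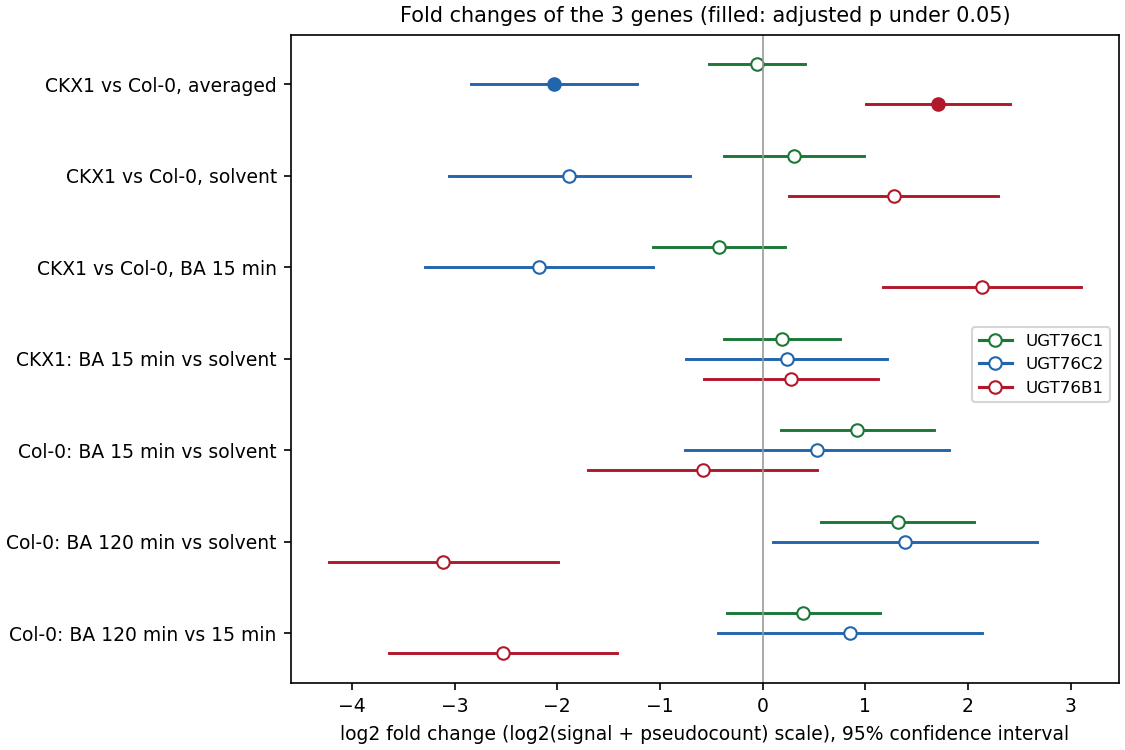
Log2 fold changes of UGT76C1, UGT76C2 and UGT76B1 (points) with 95% confidence intervals (lines) in 7 comparisons, filled where the adjusted p is under 0.05. Filled points appear only for UGT76C2 (-2.03) and UGT76B1 (1.71) in CKX1 against Col-0 averaged over solvent and 15 min.

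BA treatment of Col-0 for 120 min went with a low UGT76B1 signal. Its level was 10.5 and 17.3 units after 120 min, against 99.7 and 204.6 units with solvent, so the groups did not overlap. The log2 fold change was -3.11 (SE 0.51, 95% confidence interval -4.22 to -2.0), a 0.116-fold level, and its p-value ranked 12 on the array (limma, unadjusted p = 5.87e-05, adjusted p = 0.07). It therefore missed the threshold, which 0.0251% of probe sets passed in the lower direction and 0.0126% in the higher. In 10 of 28 other settings it passed and in 18 it did not (limma adjusted p = 0.000141 to 0.607). Groups that do not overlap were common here, with 37.4% of probe sets lower and 26.3% higher, and an exact test of 2 arrays against 2 cannot go below p = 0.333.

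Against 15 min of BA, where UGT76B1 had 131.3 and 67.5 units, the log2 fold change at 120 min was -2.53 (SE 0.51, limma unadjusted p = 0.000356, adjusted p = 0.283). At 15 min against solvent it was -0.58 (SE 0.51, unadjusted p = 0.275), and the groups overlapped. That value was -1.09 without Col-0 solvent array 1, -0.08 without solvent array 2, -1.05 without 15 min array 1 and -0.12 without 15 min array 2. Both comparisons with 120 min use the same pair of 120 min arrays. Of the 5 arrays high in 25S signal, the 3 of Col-0 had the 3 lowest UGT76B1 signals of all arrays, 10.5, 17.3 and 67.5 units, while array 3 of both CKX1 groups had the 2 highest, 384.2 and 845.5 units. Separate levels in these arrays were common, with 26.1% of probe sets lower within Col-0 and 16.9% higher within CKX1. With the 25S signal as a covariate, fitted with the same slope in all groups, the change at 120 min was -3.50 (limma adjusted p = 0.0204). This slope comes from differences within the groups. In each Col-0 pair the array with more 25S signal had less UGT76B1. In both CKX1 groups the array with the most 25S had the most UGT76B1, so the groups do not share a direction. Both 120 min arrays are high in 25S and both solvent arrays low, so without a shared slope 25S and BA cannot be told apart.

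Of 10 root genes listed, 4 had a named probe set, and their log2 fold changes at 120 min stood on both sides of 0. The root hair expansins EXPA7 and EXPA18 had -1.95 (SE 0.55) and -1.54 (SE 0.56), PYK10 had 0.16 (SE 0.22) and AT1G62500 had 1.4 (SE 0.56). The shoot genes LHCB4.1, a chlorophyll-binding protein, and RCA had 0.70 (SE 0.28) and 0.88 (SE 0.39). None of these 6 passed over all probe sets, while 3 were higher and 2 lower at an unadjusted limma p under 0.05, which 4.9% of all probe sets passed upward and 7.84% downward, and the part of organ composition in the UGT76B1 values was not tested. In such bulk samples, fewer cells of a type and less RNA per cell cannot be told apart. Between the genotypes the same root genes ranged from -0.22 to 0.27 and the shoot genes had 0.04 and 0.27.

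UGT76C1 and UGT76C2 had higher values after 120 min of BA in Col-0, and neither passed the adjusted threshold. UGT76C1 had 86.2 and 84.3 units after 120 min, against 28.8 and 36.0 units with solvent, which is 1.32 on the log2 scale (SE 0.34, limma adjusted p = 0.193, unadjusted p = 0.00236) and a 2.49-fold level. UGT76C2 had 297.4 and 245.6 units after 120 min, against 151.1 and 67.9 units with solvent, a change of 1.38 (SE 0.59, limma unadjusted p = 0.0372, adjusted p = 0.364). For both genes the 120 min arrays lay above the solvent arrays, as for 26.3% of all probe sets. UGT76C1 passed in 5 and UGT76C2 in 2 of 28 other settings.

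At 15 min in Col-0, UGT76C1 had 46.1 and 88.5 units, against 28.8 and 36.0 units with solvent, which is 0.92 on the log2 scale (SE 0.34, limma adjusted p = 1.00, unadjusted p = 0.0195). Higher groups without overlap were found in 11.6% of probe sets in this comparison, and 0% passed the threshold. Array 2 of this group decided the size, since the fit that leaves it out gave 0.47 (unadjusted p = 0.217). UGT76C2 had 155.9 and 140.3 units at 15 min, against 151.1 and 67.9 units with solvent, so the groups overlapped, and the change was 0.53 (SE 0.59).

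Within each genotype, UGT76C1 was higher in the arrays high in 25S signal, with no overlap. The 3 Col-0 arrays high in 25S had 84.3 to 88.5 units, whether treated for 15 or 120 min, and the 3 low in 25S had 28.8 to 46.1 units. In CKX1 the 2 arrays high in 25S had 49.3 and 58.4 units and the other 5 had 31.9 to 48.8 units, a narrow separation. Such a split was common, since 18.1% of probe sets were higher without overlap in the arrays high in 25S within Col-0, 16.9% within CKX1 and 6.92% within both, and 26.1%, 23.1% and 11.2% were lower. The part of this in the BA values of UGT76C1 was not tested, and in Col-0 at 120 min, where both arrays are high in 25S, it cannot be told apart from BA. With the 25S signal as a covariate the change at 120 min was 0.96 for UGT76C1 (limma unadjusted p = 0.0204) and 0.90 for UGT76C2 (unadjusted p = 0.191).

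In CKX1 seedlings no change was called for any of the 3 genes after 15 min of BA, where 0.00628% of probe sets were called higher and 0% lower. The log2 fold changes were 0.19 for UGT76C1 (SE 0.26), 0.23 for UGT76C2 (SE 0.45) and 0.28 for UGT76B1 (SE 0.39), with unadjusted limma p-values of 0.480, 0.614 and 0.489. For each gene the BA arrays and the solvent arrays overlapped, while 1.13% of probe sets were higher and 0.854% lower after BA without overlap. Without CKX1 15 min array 3, which holds the highest UGT76B1 signal, UGT76B1 had -0.05. Averaged over both genotypes, the 15 min response was 0.56 for UGT76C1 (SE 0.21, limma unadjusted p = 0.024, adjusted p = 1.00, exact permutation p = 0.0762), 0.38 for UGT76C2 (SE 0.37) and -0.15 for UGT76B1 (SE 0.32). The UGT76C1 value was 0.33 without Col-0 15 min array 2 (unadjusted p = 0.149). Over all probe sets 0.0188% were called higher and 0% lower in this averaged comparison.

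The groups took a different order for each gene by mean signal. For UGT76C2 the order from high to low was Col-0 120 min (271.5 ± 36.6 units), Col-0 15 min (148.1 ± 11.0), Col-0 solvent (109.5 ± 58.8), CKX1 15 min (33.7 ± 16.0) and CKX1 solvent (26.6 ± 10.9). Its arrays did not overlap between Col-0 at 120 and 15 min, nor between CKX1 15 min and Col-0 solvent, where 10.7% of probe sets were lower in CKX1 without overlap and 6.95% higher. Between 120 and 15 min in Col-0, 17.8% of probe sets were higher and 23.7% lower without overlap, and 0.0126% and 0.00628% were called. For UGT76B1 the order was CKX1 15 min (466.6 ± 253.6 units), CKX1 solvent (353.7 ± 48.6), Col-0 solvent (152.2 ± 74.2), Col-0 15 min (99.4 ± 45.1) and Col-0 120 min (13.9 ± 4.8). Col-0 at 120 min was thus highest for UGT76C2 and lowest for UGT76B1, and neighbours separated between CKX1 solvent and Col-0 solvent and between Col-0 at 15 and 120 min. UGT76C1 ran from Col-0 120 min (85.2 ± 1.3 units) through Col-0 15 min (67.3 ± 30), CKX1 15 min (47.4 ± 8.2) and CKX1 solvent (41.3 ± 8.8) to Col-0 solvent (32.4 ± 5.1), with overlap between all neighbours.

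**Figure D3:**
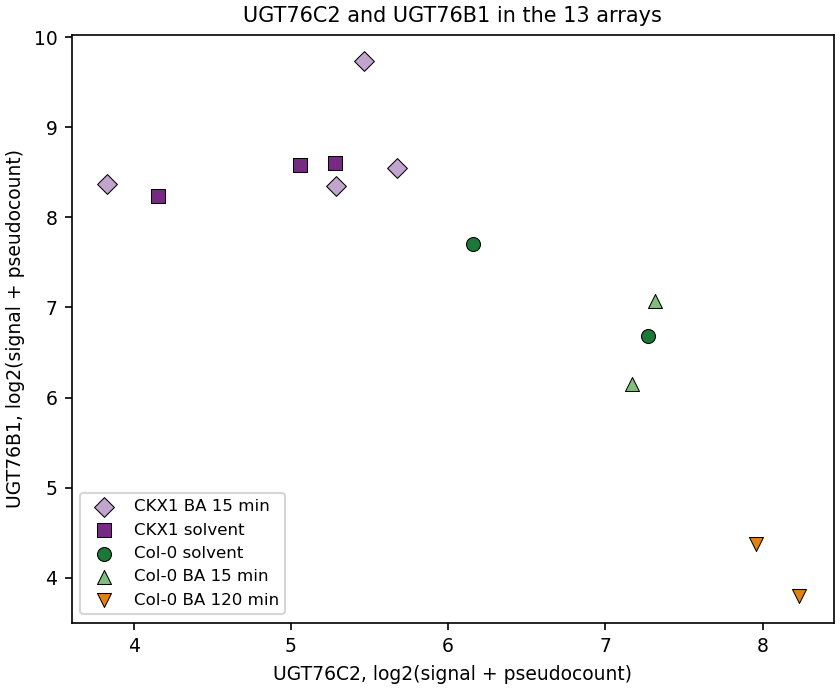
UGT76B1 against UGT76C2 in the 13 arrays, each as log2(signal + pseudocount), with a symbol for each group. The CKX1 arrays lie at low UGT76C2 and high UGT76B1, the Col-0 120 min arrays at the other corner, and the slope down to the right is seen within Col-0 and not within CKX1.

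Within the 6 Col-0 arrays the log2 signals of UGT76C2 and UGT76B1 had a Pearson correlation of -0.906 (Spearman -0.771), and within the 7 CKX1 arrays it was 0.478 (Spearman 0.429). These are descriptions over few arrays that share groups, array scaling and, in Col-0, the BA time course.

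Other genes of the UGT76 family did not share these differences at the threshold. Of 19 UGT76 loci listed, 18 had a probe set with 1 gene and 10 passed the filter on low signals, so 8 were too dim to be tested. In CKX1 against Col-0, averaged, 1 of the 10 was called higher and 1 lower, UGT76B1 and UGT76C2. Of all probe sets 0.163% were called higher and 0.251% lower. The other 7 UGT76 genes besides UGT76C1 ranged from -0.27 to 0.38. The median of the 10 was -0.05, against -0.08 for all probe sets.

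AT5G05880 and AT5G05890, which follow UGT76C1 on the chromosome, had averaged values of 0.38 (SE 0.21) and 0.28 (SE 0.25) in CKX1 against Col-0, whereas AT5G05900 was too dim, at 0.5 to 5.9 units in the 13 arrays. At 120 min of BA in Col-0 they had -0.21 (SE 0.34) and -0.27 (SE 0.39). The neighbouring pair UGT76C2 and UGT76C1 thus had positive values at 120 min while the next 2 loci had values near 0, and this contrast was not tested. UGT76E11, on chromosome 3, had 8.7 and 2.9 units after 120 min, against 23 and 18 units with solvent, or -1.45 on the log2 scale (SE 0.49, limma adjusted p = 0.278, unadjusted p = 0.012). The family's median at 120 min was -0.05, against -0.11 for all probe sets. At the adjusted threshold 0 of the 10 passed, where 0.0126% of all probe sets passed upward and 0.0251% downward. At an unadjusted p under 0.05 (limma) 2 of the 10 were higher and 2 lower, a level that 4.9% of all probe sets passed upward and 7.84% downward.

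**Figure D4:**
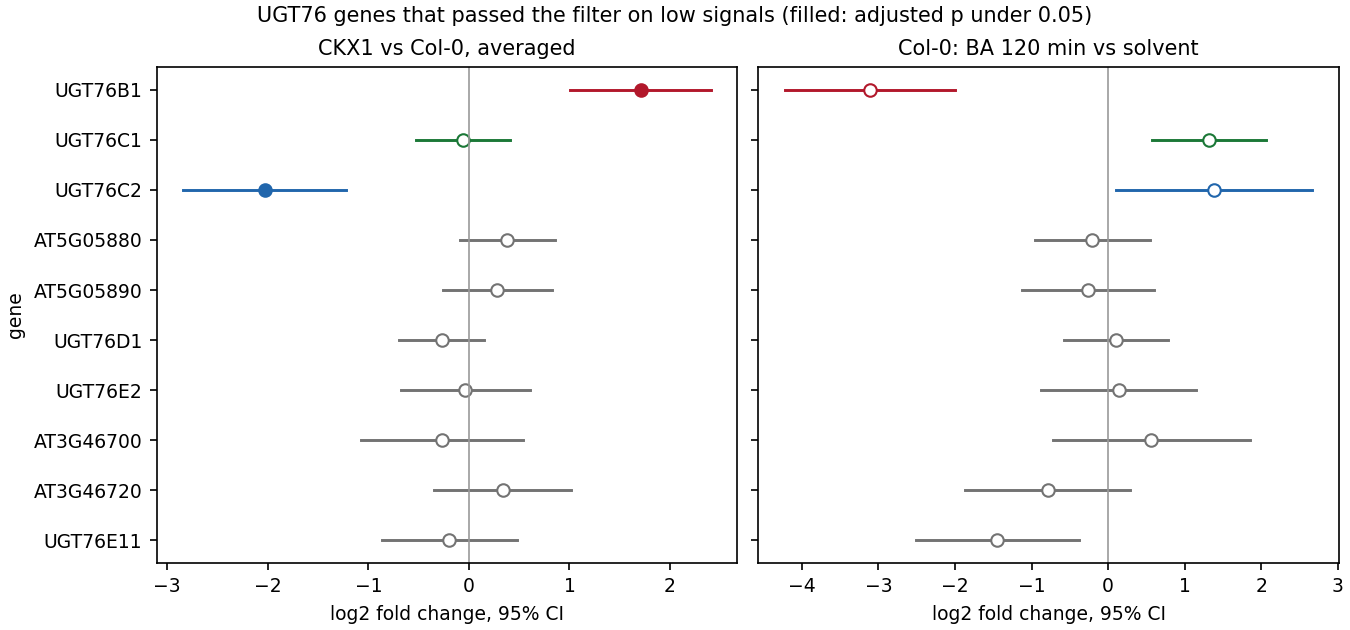
Log2 fold changes (points) with 95% confidence intervals (lines) of the 10 UGT76 genes that passed the filter on low signals, in CKX1 against Col-0 averaged over solvent and 15 min (left) and in Col-0 at 120 min of BA against solvent (right), filled where the adjusted p is under 0.05. UGT76C2 and UGT76B1 stand on opposite sides of 0 in both panels, with their signs exchanged.

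Few genes of the cytokinin pathway around these enzymes could be named here, because 8730 of the 22746 probe sets were not listed in the annotation used and may measure further ones. None of 18 listed genes of cytokinin synthesis and activation and none of 9 of perception and phosphotransfer had a probe set with 1 gene. Of 10 genes of breakdown and O-glucosylation and 12 type-B regulators and response factors, 1 each had one, and both were too dim to be tested. The named and tested genes were AZG1, which transports purines and cytokinins and was 1 of 8 in transport and salvage, and ARR15 and ARR16, which were 2 of 10 type-A response regulators, feedback inhibitors of cytokinin signalling.

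ARR15 and ARR16 had averaged log2 fold changes in CKX1 against Col-0 of -1.02 (SE 0.38, limma unadjusted p = 0.0197, adjusted p = 0.29) and -1.11 (SE 0.40, unadjusted p = 0.0177, adjusted p = 0.284). The averaged value of AZG1 was -0.12 (SE 0.27). With solvent alone ARR15 had -0.13 (SE 0.55), ARR16 had -0.84 (SE 0.58) and UGT76C2 had -1.88 (SE 0.54). After 15 min of BA these genes had -1.92 (SE 0.52), -1.38 (SE 0.55) and -2.18 (SE 0.51), in that order. The average of ARR15 thus rested mostly on the BA arrays. After 120 min of BA in Col-0, ARR15 had 2.96 (SE 0.60), ARR16 had 1.89 (SE 0.64) and AZG1 had -0.18 (SE 0.43), beside 1.38 for UGT76C2 and 1.32 for UGT76C1. At 15 min, averaged over both genotypes, the value of ARR15 was 2.30 (SE 0.38, limma adjusted p = 0.248, unadjusted p = 6.24e-05), ARR16 had 0.96 (SE 0.40, unadjusted p = 0.0353, adjusted p = 1.00) and AZG1 had 1.15 (SE 0.27, limma unadjusted p = 0.00106, adjusted p = 1.00). None of the 3 passed the adjusted threshold in these comparisons.

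Of 24 listed genes of salicylic acid and N-hydroxypipecolic acid defence, the processes that UGT76B1 acts in, 3 were tested. The transcription factor WRKY53 had -2.22 on the log2 scale (SE 1.01, limma adjusted p = 0.39, unadjusted p = 0.0488) at 120 min in Col-0, with 9.6 ± 7.5 units after BA and 54.0 ± 21.8 units with solvent (n = 2 each). SAG101, a lipase-like defence signalling protein, had -0.33 (SE 0.40) and AT5G52810 had -0.26 (SE 0.78). At 120 min 7.84% of all probe sets were lower at an unadjusted limma p under 0.05. In CKX1 against Col-0 the averaged values of the 3 genes were -0.24, -0.21 and 0.45. In either comparison 0 of the 3 passed the adjusted threshold. Of all probe sets 0.0251% were called lower and 0.0126% higher at 120 min, and 0.251% and 0.163% between the genotypes.

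Each gene was also set against 8747 other tested probe sets with 1 gene by the Pearson correlation of log2 signals over the 13 arrays, which share groups, scaling and the 25S difference. Closest to UGT76C1 were AT1G68670 (0.937), AT1G21830 (0.932), AT5G03970 (0.931) and AT2G38820 (0.914), and AT1G50110 and AT2G28710 were farthest, at -0.933 each. Closest to UGT76C2 were AT1G47310 (0.939), AT5G62280 (0.926), AT1G12120 (0.917) and AT1G05150 (0.911), with AT1G48750 (-0.947) and AT2G19730 (-0.944) at the other end. Closest to UGT76B1 were AT3G51330 (0.953), AT3G18280 (0.946), AT3G52470 (0.940) and AT5G43180 (0.935), with AT1G28100 (-0.948) and AT1G33811 (-0.942) at the other end. The 3 lists share no gene. UGT76C1 ranked 1014 of 8747 in likeness to UGT76C2 (0.563), and UGT76C2 ranked 847 in likeness to UGT76C1. The 2 neighbouring enzymes were thus moderately alike and not each other's closest match.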

How the data were processed

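Total RNA of seedlings was labelled and hybridised to Affymetrix arrays, and a service centre returned normalized values, per the labels. The deposited values are linear, already normalized signal intensities, 1 for each probe set of each array; how they were summarised and scaled is not stated in the sources used. All 13 sample columns were used.

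Of 22810 probe sets, 64 controls were left out, signals below 1 were raised to 1, and adding 3.39, which is 0.1 of the overall median (33.9), preceded the log2 step. A filter removed those with a mean log2 value below percentile 30. The model (limma 3.58.1, R 4.3.3) used the 5 groups of the 13 arrays with no block, an intensity trend and 8 residual degrees of freedom. Benjamini-Hochberg adjustment ran over all 15922 probe sets per comparison, with a threshold of 0.05. Exact permutation tests used log2 values over arrays. The fit was checked on simulated data. Probe sets were named where the annotation gives 1 gene (13513, of which 13436 matched RefSeq; 503 had several genes and 8730 were not listed).

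Same-numbered CKX1 arrays deviated together from their group means (r = 0.634, 0.580 and 0.730), so these numbers were taken to pair them. CKX1 15 min array 4, which has no partner, also had r of 0.467 with solvent array 1 and 0.155 with solvent array 2. The other differently numbered CKX1 pairs had -0.507 to -0.0182. In Col-0, r was 0.112, -0.0172 and 0.0181, which pairs none.

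Named are the 3 genes, the other measured UGT76 genes, up to 4 measured members of each pathway list per comparison, and the 4 most and 2 least similar genes of each. Members and lists were chosen with earlier results of these data known. Alternatives were other scalings, pseudocounts, filters, variance models, array weights, replicate blocks, a 25S covariate, fits of the compared groups alone and leaving out arrays.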

Additional observations from a re-analysis of the deposited data

Results flagged for a closer look

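In the 4 CKX1 15 min arrays, UGT76B1 had 845.5 units in array 3, far above the 321.7 to 372.1 units of the other 3. The gap took 0.904 of the group's range, above Dixon's 95% critical value for 4 samples, a level that chance reaches in about 1 of 20 groups. The same array had the highest 25S control signal, 803.7 units, and UGT76B1 stood there at the percentile 96.3 of its probe sets, against 90.5 to 91.7 in the other 3. None of the other 9 tested UGT76 genes had such an array in this group. Without it UGT76B1 had 1.54 in CKX1 against Col-0, averaged (limma adjusted p = 0.0353).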

How the results depend on the processing

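UGT76C2 in CKX1 against Col-0, averaged, kept its sign in all 27 alternatives and passed in 8. It did not pass with -1.90 (median-centred arrays), -1.92 (quantile), -2.16 (pseudocount 0.01 of the median), -2.03 (no filter, no trend, or only the groups compared), -2.01 (random replicate block) and -2.25 (leaving out array 3 of each CKX1 group and array 2 of Col-0 at 15 min), and ranged from -2.31 to -1.75 over single arrays left out. UGT76B1 there kept its sign in all 27 and passed in 9; it did not pass with 1.74 (pseudocount 0.01 of the median), 1.71 (no filter, no trend, or only the groups compared), 1.68 (random replicate block) and 1.28 (without those 3 arrays), and ranged from 1.45 to 1.96 over single arrays.

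At 120 min in Col-0, UGT76B1 passed at -3.11 with array weights, with a fixed or random replicate block, with only the groups compared and leaving out array 3 of each CKX1 group, alone or among those 3 arrays, also without either Col-0 15 min array or CKX1 15 min array 3, and at -3.50 with 25S as a covariate; single arrays left out gave -3.62 to -2.60. UGT76C1 passed at 1.32 with array weights, either replicate block, only the groups compared or without those 3 arrays (1.17 to 1.46 over single arrays), and UGT76C2 at 1.38 with array weights or only the groups compared (0.82 to 1.94). UGT76C1 at 15 min, averaged, passed in none of 28 (0.33 to 0.78). UGT76B1 at 120 against 15 min passed in 3 of 28, at -2.53 with the random replicate block, -2.88 with the 25S covariate and -2.99 without those 3 arrays, and in CKX1 against Col-0 after 15 min in 1 of 27, at 2.12 with the covariate. The replicate block changed no further call of the 3 genes. Same-numbered arrays deviated together in CKX1 alone, so the Col-0 calls that the block adds are no paired result.

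Signs turned for values near 0. UGT76C1 in CKX1 against Col-0, averaged, had 0.077 and 0.10 with median-centred or quantile-normalized arrays, 0.052 without those 3 arrays, and -0.28 to 0.17 over single arrays; over single arrays it also had -0.87 to 0.023 after 15 min alone and -0.052 to 0.84 between 120 and 15 min. UGT76C2 ranged over single arrays from -0.030 to 1.09 in Col-0 at 15 min, from -0.11 to 0.65 in CKX1 at 15 min and from -0.85 to 0.26 in the interaction, which was 0.10 with array weights. UGT76B1 kept its sign, over single arrays, in Col-0 at 15 min (-1.09 to -0.077) and in the interaction (0.36 to 1.37, and 0.14 without those 3 arrays), and ranged from -0.049 to 0.41 in CKX1 at 15 min and from -0.41 to 0.10 averaged over genotypes. The causes were not tested.

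The count of probe sets past the threshold depended strongly on the setting: 66 in CKX1 against Col-0, averaged, with 2 to 377 elsewhere, and 6 at 120 min in Col-0, with 0 to 3672. The median of all probe sets at 120 min was -0.11, and 0.093 once arrays were median-centred. Groups of 2 to 4 arrays limit the precision of every value, and expression calls were not used, so dim signals have no detection call.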

Other observations

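Among the UGT76 genes too dim to be tested, AT3G46690 and UGT76E12 were chosen after their values were seen. In CKX1 arrays 1 to 4 after 15 min of BA, AT3G46690 had 8.6, 5.4, 46.9 and 0.9 units, against 1.8, 0.8 and 34.9 units in arrays 1 to 3 with solvent. The highest value of both groups was thus in array 3. UGT76E12 had 18.6, 30.1, 6.9 and 22.9 units after BA, against 5.8, 43.5 and 2.4 units with solvent, with array 2 highest and array 3 lowest in both groups. No test was made of either pattern.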
